A study of Mus musculus with 6 samples.

Results

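The immunoglobulin heavy chain and B cell markers were followed here as 8 genes: Igh, Ms4a1, Cd79a, Cd79b, Cd22, Cd37, Blnk and Xbp1, out of 9774 genes tested. They were chosen by gene symbol, and because Igh and the B cell markers had shown opposite signs in these same arrays, so their ratios are given as a description and no test was made of them. Lung RNA from each of 6 C57 mice that had been sensitized to and challenged with ovalbumin (OVA), a procedure that gives an allergic inflammation of the airways, was amplified and hybridized to a dual-colour spotted array. The other channel of every array held a single pool of amplified lung RNA from control C57 mice. The age, sex and OVA schedule of the mice and the number of mice in the pool are not in the labels. The pool stands on every array as 1 control sample, so the spread between control mice is not in any value below.

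The values are the log ratios the authors deposited, with each array centred on its median and read as log2. The base of the logarithm is not stated, and with a natural logarithm every fold would be larger than printed. The labels do not say which channel is the numerator. Titles name the OVA mouse first, but Clca1 and Muc5ac, genes of airway mucous cells, and Saa3 and Retnla, genes of inflamed lung, all of them known to rise after allergen challenge, had means of -3.06, -2.63, -3.85 and -2.81. No direction is therefore assigned: a ratio is called positive or negative with its deposited sign, and its size is a fold apart between OVA lung and pool. A ratio holds no level, so whether a B cell transcript was abundant or near background in these lungs cannot be read from it, and the same holds for the check of the tissue. Of 5 lung markers, 4 could be tested, and 2 were called on the positive side (Scgb1a1 at 1.38 and Sftpc at 0.60) and 1 on the negative side (Sftpa1 at -0.61), a call being an adjusted p below 0.05 in the fit described further on. That fit called 25.4% of all genes. Sftpc lost its call without mouse 1, 2, 4, 5 or 6 and Sftpa1 without mouse 2, 4 or 5.

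The array of mouse 3 stood apart from the others. The SD of its ratios over all probes was 0.21, against 0.32 to 0.47 in the other mice, and its Pearson correlation with them across 8663 probes was 0.17 to 0.42, against 0.49 to 0.86 among them (a description, since probes are not independent and all arrays share the pool). The response genes differed there too: Clca1, Muc5ac, Saa3 and Retnla were at 0.842, 0.224, -0.007 and 1.005 in mouse 3, while in the other 5 mice all 4 lay between -5.951 and -1.358. Values are therefore given with and without mouse 3. The arrays carry 10 sequences spotted 17 times each, and the median SD between such copies was 0.0911 to 0.136 within an array. This is the spread between spots of these sequences alone, and it leaves out differences of amplification and hybridization between arrays. The median ratio of all genes tested was -0.003.

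An antibody is built of paired heavy and light chains, and Igh is the locus of the heavy chain. In resting B cells the heavy chain sits in the membrane as part of the B cell receptor, whose signal is carried inward by the CD79A and CD79B chains, passed on by the adaptor BLNK and damped by the inhibitory lectin CD22. CD20 (Ms4a1) and the tetraspanin CD37 are membrane proteins of mature B cells, lost or reduced when a B cell becomes a plasma cell. Plasma cells make secreted antibody in bulk, and the transcription factor XBP1 expands their endoplasmic reticulum for that load. In lung, B cells are a minor population that can gather around the airways after allergen challenge. RNA of whole lung does not distinguish fewer cells of a type from less RNA per cell.

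For 5 of the 8 members a promoter is held in the RefSeq table of build GRCm38.p6, from 250 bases before to 50 bases after an annotated start, on the strand of the gene. The 3 below belong to members that were negative on average. They are shown because octamer and EBF1 sites are textbook elements of B cell promoters, and were searched on both strands for the octamer ATGCAAAT, bound by OCT factors, and for TCCCNNGGGA, the palindrome of EBF1. No match of one motif overlapped one of the other. Capitals mark matches.
Cd79a, chr7:24897247-24897546, plus strand: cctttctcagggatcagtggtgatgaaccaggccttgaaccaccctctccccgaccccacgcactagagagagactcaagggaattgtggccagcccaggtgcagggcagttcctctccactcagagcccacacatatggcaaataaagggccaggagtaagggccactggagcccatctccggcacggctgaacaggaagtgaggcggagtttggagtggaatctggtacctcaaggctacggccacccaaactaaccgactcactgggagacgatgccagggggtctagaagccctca
Cd22, chr7:30878979-30879278, minus strand: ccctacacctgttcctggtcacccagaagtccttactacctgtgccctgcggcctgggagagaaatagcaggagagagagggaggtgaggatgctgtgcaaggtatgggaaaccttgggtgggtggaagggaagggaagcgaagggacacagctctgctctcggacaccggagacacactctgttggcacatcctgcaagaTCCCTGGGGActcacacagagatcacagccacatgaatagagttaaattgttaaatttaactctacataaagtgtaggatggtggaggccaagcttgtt
Blnk, chr19:40994172-40994471, minus strand: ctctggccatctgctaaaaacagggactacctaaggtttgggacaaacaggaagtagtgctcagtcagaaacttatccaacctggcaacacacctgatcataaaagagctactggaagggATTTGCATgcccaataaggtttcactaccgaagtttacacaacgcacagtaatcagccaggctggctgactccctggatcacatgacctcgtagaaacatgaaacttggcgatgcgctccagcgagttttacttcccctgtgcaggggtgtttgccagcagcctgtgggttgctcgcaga
Blnk held 1 octamer, read on the opposite strand, whose first base lies at -130 from the start, and Cd22 held 1 EBF1 palindrome at -49. Among 32851 promoters of 300 bases, 1.74% held the octamer and 0.904% the palindrome. Cd79a held neither of these exact motifs, and neither did Cd37 or Xbp1. Sites that differ from these letters were not searched for, so a promoter without a match may still hold a site. A match is letters in a window and says nothing of binding.

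Igh was represented by 1 probe. Its log2 ratio was 2.753 in mouse 1, 2.287 in mouse 2, 1.278 in mouse 3, 2.749 in mouse 4, 2.753 in mouse 5 and 3.057 in mouse 6. All 6 values were positive, and mouse 3 was the lowest. The mean was 2.48 ± 0.64 (SD, n = 6), 5.58-fold apart, and 2.72 ± 0.28 (n = 5) without mouse 3, 6.59-fold apart. With the deposited sign this was the highest mean ratio among all 11629 probes tested, and with the sign turned it would be the lowest. By size it was not the largest: the means of Saa3, Clca1, Retnla and Muc5ac given above lie farther from 0. Within single arrays, from the highest deposited ratio down, the probe ranked 6 of 10996 tested probes in mouse 1, 9 of 10958 in mouse 2, 5 of 10844 in mouse 3, 3 of 11350 in mouse 4, 1 of 10331 in mouse 5 and 3 of 11259 in mouse 6. In mouse 3, where ratios spread less, Igh was still among the highest probes although its own ratio was smaller. The annotation names the whole heavy chain locus, and which isotype or variable region the spot detects is not given.

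The signalling chains of the receptor come next. The members were picked for opposite signs of Igh and the B cell markers, so a difference from Igh is not a finding. Cd79a, the Ig-alpha chain, had log2 ratios of -1.134, -0.393, 0.310, -0.487, -0.412 and 0.191 in mice 1 to 6. Mice 3 and 6 lay above 0 and the others below, with mouse 1 the lowest. Its mean was -0.32 ± 0.52 (n = 6) and -0.45 ± 0.47 without mouse 3 (n = 5). Cd79b, the Ig-beta chain that pairs with it, was at -0.377, 0.151, -0.177, 0.108 and 0.058 in mice 1, 3, 4, 5 and 6 and had no value in mouse 2. Its values lay on both sides of 0, and the mean of -0.05 ± 0.22 (n = 5) was smaller than their spread. Blnk, the adaptor that links the receptor to phospholipase C, had -0.919, -0.451, 0.290, -0.337, -0.017 and -0.083 in mice 1 to 6. Mouse 3 alone was positive, and mice 5 and 6 were near 0, within the median SD between copies of the repeated sequences. Its mean was -0.25 ± 0.42 (n = 6), or -0.36 ± 0.36 without mouse 3 (n = 5).

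Among the surface proteins, Ms4a1 had ratios of -0.006, -0.211, 0.186, -0.332, -0.847 and -0.973 in mice 1 to 6. Mice 5 and 6 were the lowest, mouse 1 was next to 0 and mouse 3 above it. The mean was -0.36 ± 0.46 (n = 6), 1.29-fold apart, and -0.47 ± 0.42 without mouse 3 (n = 5), 1.39-fold apart. Cd22 was at -0.354, -0.465, 0.294, -0.394, -0.661 and -0.216. It was negative in 5 of 6 mice with mouse 3 as the exception, and its mean of -0.30 ± 0.33 (n = 6) became -0.42 ± 0.16 (n = 5) without that mouse, the smallest SD relative to the mean among the markers. Cd37 had 2 probes. The first had no value on any array and lay outside the rule of at least 4 arrays, and the second lay just inside it with 4 values, -0.142, 0.024, -0.016 and 0.139 in mice 1, 4, 5 and 6. These lie about 0, with a mean of 0.001 ± 0.12 (n = 4), and do not include mouse 3.

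Xbp1 was at 0.217, -0.309, -0.253, -0.239, -0.077 and -0.130 in mice 1 to 6. Here mouse 1 was the exception with a positive value, and mouse 3 lay with the others. The mean was -0.13 ± 0.19 (n = 6), and -0.11 ± 0.20 without mouse 3 (n = 5), 1.10-fold and 1.08-fold apart.

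**Figure D1:**
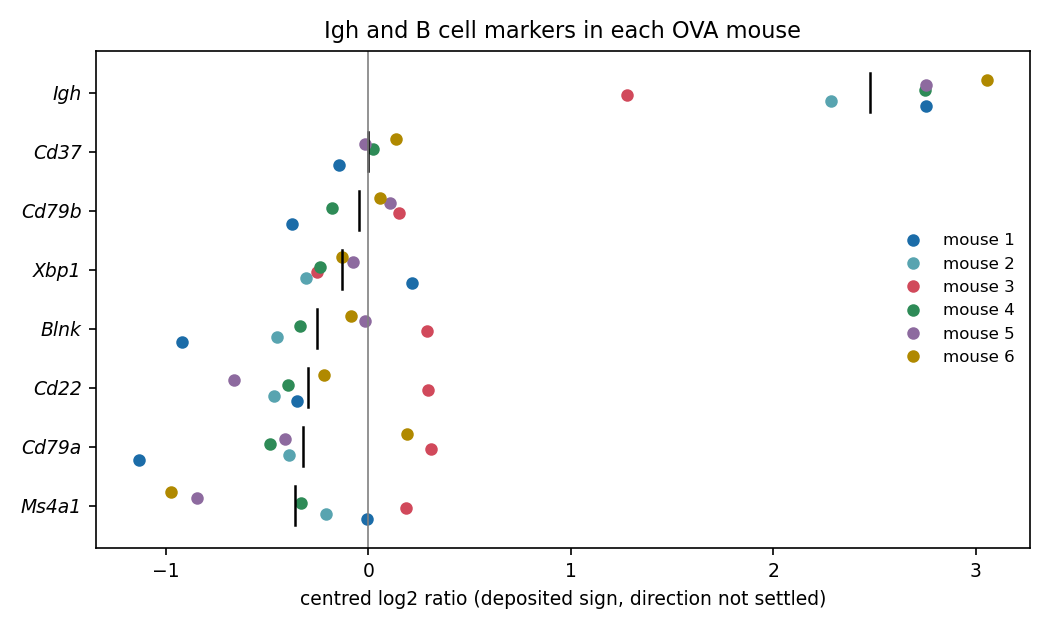
Centred log2 ratio (horizontal axis, deposited sign, direction not settled) of each member in each OVA mouse against the control pool; points are single arrays, 1 colour per mouse, and the black line is the mean over the mice with a value. Igh lies between 1.278 and 3.057 in all mice, while the other members lie between -1.134 and 0.310.

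Over the 7 members beside Igh there were 39 values, 28 negative and 11 positive, and 5 of the 11 came from mouse 3. In mouse 3 these members numbered 5 positive among 6 measured, with a median of 0.24, against medians of -0.35, -0.39, -0.33, -0.08 and -0.08 in mice 1, 2, 4, 5 and 6. The gap between Igh and the highest other member was 2.54, 2.50, 0.97, 2.73, 2.65 and 2.87 in mice 1 to 6. Nothing is read from this gap, because the members were picked for opposite signs of Igh and the B cell markers. Igh also lay above at least 99.9% of tested probes in every array, so nearly any gene would lie below it. In the order of the means Igh stood first, followed by Cd37, Cd79b, Xbp1, Blnk, Cd22, Cd79a and Ms4a1. Igh exceeded Cd37 by 2.83 ± 0.09 (SD of the paired difference, 4 mice). Every further step down the order was smaller than its spread, from 0.02 ± 0.41 between Cd22 and Cd79a (6 mice) to 0.12 ± 0.55 between Xbp1 and Blnk (6 mice), so the order among these 7 is not resolved.

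Ms4a1, Cd22 and Blnk shared one shape: negative in mice 1, 2, 4, 5 and 6 and positive in mouse 3. This shape was seen in 3 of the 6 members with a value on every array and in 6.66% of the 7503 genes so measured. It was noticed in these values and not tested. It was also found in 13 of 33 genes of the B cell lists described below, among them the kinases Btk and Blk, the coreceptor Cd72 and the TNF receptor Tnfrsf13b. In mouse 3 the T cell list had a median of 0.28 and the 4 neutrophil genes a median of 0.54, so the positive side of mouse 3 took in genes of other leukocytes too. The part of the array of mouse 3 in this shape was not tested.

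The whole table was fitted with limma, each probe's mean ratio against 0, with Benjamini-Hochberg adjustment over all 11629 probes, and a gene was called at an adjusted p below 0.05. Of the genes tested 25.4% were called, 12.7% on the positive and 12.8% on the negative side. Among the 8 members 1 was called, Igh, and 7 were not, and nothing is read from this count because the members were picked from this contrast. Without mouse 3 the calls made up 27.4% of genes, 13.5% positive and 13.9% negative, and included 2 members, Igh and Cd22.

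The other immunoglobulin genes tested had means between -0.12 and 0.12 over all mice with a value. Ighm, the constant region of IgM, which lies inside the heavy chain locus, had 2 probes that differed. The first was at -0.540, 0.024, 1.262, -0.311, -1.005 and -0.118 in mice 1 to 6, with a mean of -0.11 ± 0.77 (n = 6), highest in mouse 3 and lowest in mouse 5. Without mouse 3 its mean was -0.39 (limma adjusted p = 0.0937). The second lay between 0.004 and 0.294 in the 5 mice with a value, with a mean of 0.12 ± 0.11. The heavy chain variable gene Igh-VS107 had a mean of -0.12 ± 0.09 (n = 5) and the lambda light chain variable gene Iglv1 of -0.03 ± 0.28 (n = 6). The joining chain Jchain, which links IgM and IgA into polymers, had 3 values, between -0.480 and 0.050. The kappa gene Igk-V21 had 2 values, -0.036 and 0.079, and Ighg3, the constant region of IgG3, had none. Of the 3 immunoglobulin genes tested 0 were called in limma, beside 25.4% of all genes, and 1 had an unadjusted p under 0.05. No other heavy or light chain probe exceeded 1.262 on any array.

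Genes of B cell receptor signalling, without the members, were mostly on the negative side. Of 20 tested, 6 were called and all 6 were negative, and the median ratio was -0.22, beside 12.8% of all genes called negative and their median of -0.003. Fcgr2b, the inhibitory IgG receptor of B cells and macrophages, was at -1.14 ± 0.69 (n = 6, limma adjusted p = 0.0142), negative in all 6 mice and at -0.054 in mouse 3. Ptprc, the leukocyte phosphatase CD45, was at -0.74 ± 0.47 (adjusted p = 0.0178), negative in 5 of 6 mice. Bcl10, which couples antigen receptors to NF-kB, was at -0.58 ± 0.39 (adjusted p = 0.022), and Lat2, an adaptor of B cells and myeloid cells, at -0.54 ± 0.43 (n = 5, adjusted p = 0.0495). The B cell kinase Blk, which was not called, was at -0.29 ± 0.37 (adjusted p = 0.137). Fcgr2b lost its call without mouse 4, Ptprc without mouse 2, 4 or 6 and Bcl10 without mouse 2, 4 or 5, while Lat2 was called in 3 of 12 alternative settings. The count moved with single mice. It was 11 of 20 without mouse 3, where Blk (-0.44, adjusted p = 0.00412), Btk (-0.62) and Cd72 (-0.93) were among those called. It was 3, 1, 2 and 2 without mouse 1, 2, 5 or 6, and 0 without mouse 4, where 8 had an unadjusted p under 0.05. Several of these genes, Fcgr2b, Ptprc and Lat2 among them, are also used by myeloid cells.

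Genes of B cell surface and identity were also mostly on the negative side. Of 22 tested, 17 had a negative and 5 a positive mean, and the median was -0.21. Calls numbered 7 on the negative side and 1 on the positive side, beside 12.8% and 12.7% of all genes. The positive gene was Vpreb3, a chaperone-like partner of the heavy chain in B cell precursors. It was at 1.197, 1.643, 0.737, 0.953, 1.167 and 1.458 in mice 1 to 6. All 6 values were positive and mouse 3 was again the lowest. Its mean was 1.19 ± 0.33, 2.29-fold apart (limma adjusted p = 0.0028), and 1.28 without mouse 3. Vpreb3 had the same sign as Igh, and it was called under each of the 13 alternative settings. The same held for the lung gene Scgb1a1, at 1.38. On the negative side were Ly86, the partner of the receptor CD180 on B cells and macrophages, at -1.73 ± 1.15 (adjusted p = 0.0189), the survival factor Tnfsf13b (BAFF) at -0.66 ± 0.37 (adjusted p = 0.0121) and the B cell chemoattractant Cxcl13 at -0.57 ± 0.43 (adjusted p = 0.03). Ly86 was at 0.317 in mouse 3, and its mean was -2.14 without that mouse. Ly86 and Cxcl13 lost their calls without mouse 2, 4 or 6. Several genes of this list, Ly86 among them, are also used by myeloid cells, and Tnfsf13b and Cxcl13 act on B cells as ligands. The negative calls are therefore not a measure of B cell identity alone. The B lineage factor Pax5, measured on 4 arrays, was at -0.21 ± 0.12 and was not called (adjusted p = 0.0629). In all, 14 of the 22 genes were not called. Among them were Fcmr at 0.32 ± 0.67, Spib at -0.02 ± 0.29, Tnfrsf13c at -0.06 ± 0.49 and Fcer2a at -0.20 ± 0.42. Without mouse 3 their means were 0.10, -0.11, -0.21 and -0.30. The count of calls was 10 without mouse 3, 4 without mouse 1, and 2 without mouse 2, mouse 4 or mouse 6, Vpreb3 being the positive call each time.

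**Figure D2:**
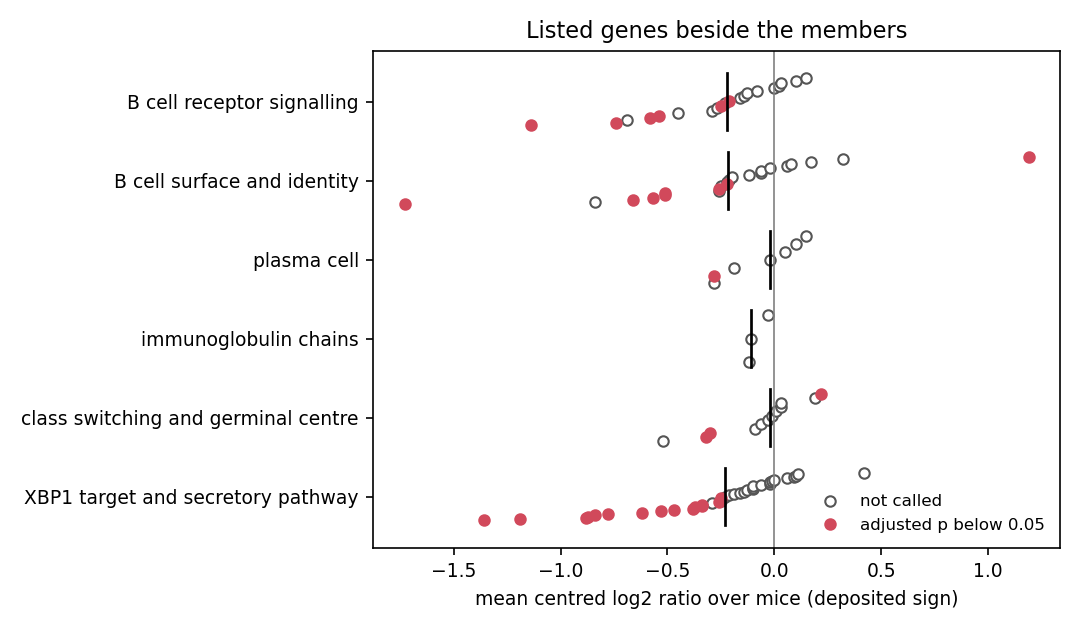
Mean centred log2 ratio over mice (horizontal axis, deposited sign) of each gene in 6 lists, members left out; filled points passed an adjusted p of 0.05 in limma, open points did not, and the black line is the median of the list. Vpreb3 at 1.19 is the only point of the B cell surface list called on the positive side, and Ly86 at -1.73 the lowest of that list.

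Genes of the plasma cell list lay near 0 on average. Of 7 tested 1 was called, beside 25.4% of all genes, and the list had a median of -0.02. The called gene was the chemokine receptor Cxcr4 at -0.28 ± 0.09 (n = 4, adjusted p = 0.0196). Mzb1, a chaperone of antibody assembly in plasma and marginal zone B cells, was at 0.15 ± 0.16 (adjusted p = 0.11), and the factor Irf4 at -0.28 ± 0.59 (adjusted p = 0.342). Prdm1, Sdc1 and Tnfrsf17, which define plasma cells, and Jchain could not be tested. Several of the genes tested, Cxcr4 among them, are also used by other cells, so the list median says little of plasma cells. Class switching and germinal centre genes had 1 positive and 2 negative calls among 12, near the 25.4% of all genes, and a median of -0.02. These were the damage kinase Atm at 0.22 ± 0.12, and the mismatch repair protein Msh6 at -0.32 ± 0.14 and the exonuclease Exo1 at -0.30 ± 0.20, which also serve dividing cells in general. Cxcr4 lost its call without mouse 1, 4, 5 or 6, Exo1 without mouse 2, 4 or 6 and Atm without mouse 4 or 6, so that 1 call of the switching list was left without either of those mice.

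Among targets of XBP1 and the secretory machinery every call over the 6 mice was on the negative side. Of 37 genes tested, 15 were called, with a median of -0.23, again beside 12.8% of all genes called negative. Without mouse 3 the calls were 15 negative and 1 positive, and 10 negative ones were left without mouse 2 or mouse 4. The calcium-binding chaperone Calr was at -1.36 ± 0.32 (adjusted p = 0.00177), Hsp90b1 at -1.19 ± 0.27 (adjusted p = 0.00163), the disulfide isomerase Pdia3 at -0.88 ± 0.38 (adjusted p = 0.0061) and Hspa5, the chaperone BiP that was first found bound to heavy chains, at -0.87 ± 0.30 (adjusted p = 0.00407). These 4 were negative in all 6 mice, mouse 3 included, where Calr was at -1.353 and Hsp90b1 at -0.794. They were also called under all 13 alternatives. The other genes of the list, 22 of 37, were not called over the 6 mice. Among these were Dnajb9 at 0.00 ± 0.12 (n = 5), Hyou1 at -0.02 ± 0.11 and Derl3 at -0.02 ± 0.19. Herpud1, at 0.42 ± 0.52, was the positive call without mouse 3. The list holds genes that every secretory cell uses, and 32 of its 37 means were negative, beside a median of -0.003 over all genes.

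Receptors that bind or carry antibody had 3 negative calls among 7, beside 12.8% of all genes called negative, and a median of -0.31. Fcgr1, the high-affinity IgG receptor, was at -1.87 ± 1.00 (adjusted p = 0.0102), Trim21, a cytosolic antibody receptor, at -0.37 ± 0.30 (adjusted p = 0.0417), and Pigr, which carries IgA and IgM across epithelium, at -0.31 ± 0.21 (n = 5, adjusted p = 0.0367). The count was 1, Fcgr1, without mouse 2, mouse 4 or mouse 6. Trim21 also lost its call without mouse 5.

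In the MS4A family, beside Ms4a1, 3 of 10 tested genes were called, all negative, against 12.8% of all genes called negative. They were Ms4a6d at -2.22 ± 1.03, Ms4a6b at -1.79 ± 0.98 and Ms4a7 at -1.25 ± 0.68 (adjusted p = 0.00707, 0.0108 and 0.0109). These are best known from macrophages and T cells, and Ms4a1 was at -0.36. Among tetraspanins beside Cd37, 3 of 18 were called positive and 1 negative, beside 12.7% and 12.8% of all genes. Tspan4 at 0.71 ± 0.28 and Cd82 at -0.63 ± 0.17 (n = 4) were farthest from 0. Among the sialic acid binding lectins related to Cd22, Cd33 at -0.29 ± 0.17 and Siglece at 0.21 ± 0.16 were called among 4, beside 25.4% of all genes. Siglece lost its call when mouse 1, 2, 4, 5 or 6 was left out, and Cd33 without mouse 2 or mouse 6.

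Markers of other cells were read beside these, and their counts stand against 25.4% of all genes called. Of 6 T cell genes tested 1 was called, the receptor chain Cd247 at 0.43 ± 0.19 (n = 4, adjusted p = 0.021), and the list median was -0.07, with mouse medians between -0.61 and 0.28. Scaling the arrays to one spread, or quantile normalization, gave 3 T cell calls, 2 of them negative. Of 3 macrophage and dendritic genes 0 were called in limma and 1 had an unadjusted p under 0.05, with Marco at 0.44 ± 0.77 and Itgax at -0.39 ± 0.41. Of 4 neutrophil genes 1 was called, Mpo at -0.15 ± 0.07, and its call was lost without mouse 2, 3, 4 or 6. Cd247 lost its call without mouse 2, 4 or 5. Without mouse 3, where 27.4% of all genes were called, the T cell list had 1 positive and 1 negative call. The macrophage and dendritic list then had 1 call, Itgax at -0.49 (limma adjusted p = 0.0356), and the neutrophil list had 0. The part of these other cells in the ratios of the members was not tested.

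**Figure D3:**
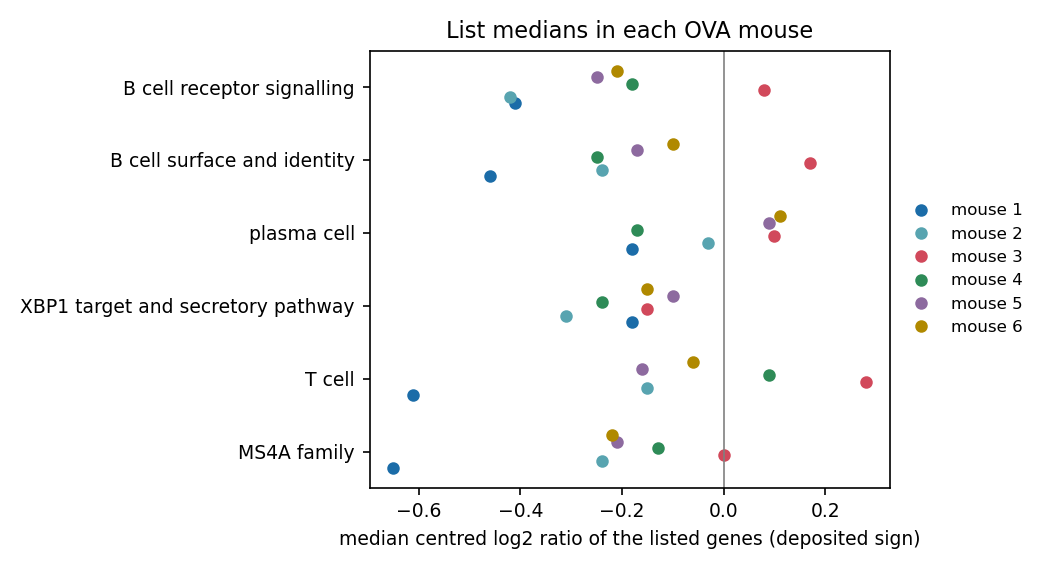
Median centred log2 ratio (horizontal axis, deposited sign) of the tested genes of 6 lists in each OVA mouse, 1 colour per mouse. Mouse 3 lies at 0.08 and 0.17 for the 2 lists of B cell genes, where the other mice lie between -0.46 and -0.10. For the list of XBP1 targets and secretory machinery it lies at -0.15, inside the range of the others.

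The genes nearest to the members were sought by the root mean square difference of the ratios over the 6 mice, among 7816 named probes with a value on every array. Nearest to Igh was Cidea, a lipid droplet protein of fat cells, at a difference of 0.56, followed by the muscle and brown fat cytochrome oxidase subunit Cox8b at 0.91, the fat cell hormone Adipoq at 0.98, the airway secretory protein Bpifa1 at 1.04 and the glutathione transferase Gsta3 at 1.05. Cidea was at 2.652, 1.437, 1.713, 2.853, 1.781 and 3.069 in mice 1 to 6. It was above Igh in mice 3, 4 and 6, and below it in mice 1, 2 and 5. None of the 5 is a gene of the B cell lists. Few probes lie this far above 0, so the nearest ones are still distant.

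The mean of the 4 markers with a value on every array, Ms4a1, Cd79a, Cd22 and Blnk, was -0.60, -0.38, 0.27, -0.39, -0.48 and -0.27 in mice 1 to 6. Nearest to it were Dock11, a guanine nucleotide exchange factor expressed in B cells, at 0.09, the large scaffold protein Ahnak at 0.10, the B cell kinase Blk at 0.11, and Chic2 and Tmx2 at 0.12. Blk was at -0.483, -0.421, 0.428, -0.542, -0.522 and -0.208. It was picked for its closeness to the marker mean, so this closeness is not a finding. The distances to Igh and to the markers are not comparable in size, because many more probes lie near 0.

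**Figure D4:**
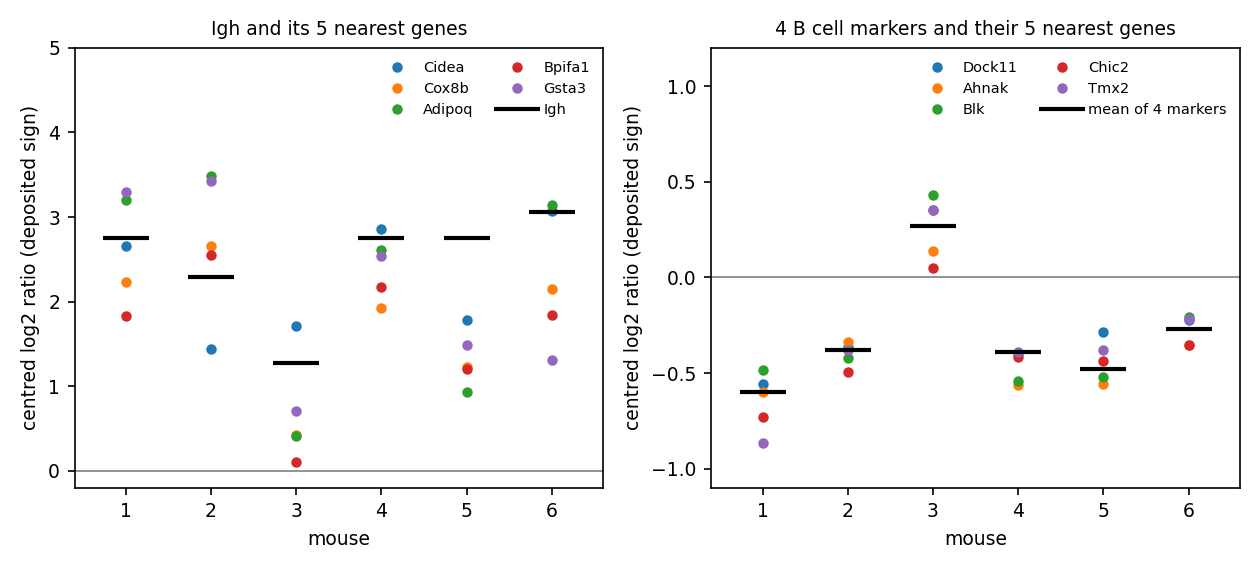
Centred log2 ratio (vertical axes, deposited sign) in mice 1 to 6 (horizontal axes) of Igh with its 5 nearest genes (left) and of the mean of Ms4a1, Cd79a, Cd22 and Blnk with its 5 nearest genes (right); bars are Igh or the marker mean and points are genes. The left genes scatter widely around Igh, which is at 1.278 in mouse 3, and the right ones, picked for closeness, lie around the marker mean, which is at 0.27 in mouse 3.

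Across all tested probes, mean ratios of probes 6, 18 or 24 numbers apart in the table had Pearson correlations of 0.13, 0.10 and 0.11, against -0.02 to 0.05 at the other distances up to 30 (a description over 8947 to 9284 pairs, which share the arrays). The probes at those 3 distances were therefore read for each member. Around Igh the 6 such probes had means between -0.14 and 0.20, none of them near its 2.48. Around Ms4a1 and Cd79a none was stronger on the same side. Cd22 had 2 stronger probes on the negative side, the lowest at -0.66, Blnk had 2, the lowest at -0.29, and Cd79b, Cd37 and Xbp1 had 2 each. Around Vpreb3 the highest such probe was at 1.07, below its own 1.19. Of the called genes named above, Atm, Cxcr4, Mpo, Msh6 and Siglece had a stronger probe of their own sign at one of these distances. The part of such probes in the ratios of these genes and of the members was not tested.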

How the data were processed

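The members and lists were chosen with earlier results of these data known. The authors deposited 1 log2 ratio per probe and array, as read here; per the labels, each array carries RNA of an OVA mouse and of a control pool. Scanner, background correction, normalization, spot filter, base of the logarithm, dyes and direction: not given in the sources used here, and intensities were not used, so depth is unknown and the number of arrays limits the precision. Of 17280 probes, 14722 have 1 gene symbol in the platform annotation, 1 has several and 2557 have none; 14445 symbols were updated by gene number through a table of mouse genes (GRCm38.p6, names alone). Each array was centred on its median over probes with a value on all arrays, and 170 repeated and 4 plant rows were left out.

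Probes with a value on at least 4 of 6 arrays were fitted with limma 3.58.1 in R 4.3.3 (intercept alone, eBayes, two-sided, Benjamini-Hochberg), and the fit was tested on simulated data. The p-values measure the spread between arrays with 1 OVA mouse each, so differences of mouse and of array cannot be told apart. The spread between control mice is not in them. Lists were counted with 1 probe per gene, the one on most arrays, and members left out. Named were all members, all immunoglobulin chains, up to 4 called genes per list by size (or 2 as values), and the 5 nearest probes to Igh and to the marker mean. Blk, Btk, Cd72, Tnfrsf13b, Pax5, Fcmr, Spib, Tnfrsf13c, Fcer2a, Mzb1, Irf4, Dnajb9, Hyou1, Derl3 and Herpud1 were named after their values were seen. Alternatives were other centring, scaling, filters, weights, robust eBayes and leaving out each mouse. Promoters are from RefSeq. Plots were made in Python 3.11.15 (matplotlib 3.10.9).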

Additional observations from a re-analysis of the deposited data

Results flagged for a closer look

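In 51 probes of members and named genes, the highest or lowest mouse was compared with the nearest other. In 3 it stood apart by Dixon's criterion, which chance alone meets in about 1 of 20 groups. None is a member. Ptprc was at 0.182 in mouse 3, and the next highest mouse was at -0.733. Clca1 was at 0.842 in mouse 3, and the next highest was at -3.109. Iglv1, a lambda light chain gene, was at -0.549 in mouse 1, and the next lowest mouse was at -0.044.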

How the results depend on the processing

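The mean of Igh lay between 2.36 and 2.72 when each mouse was left out in turn and between 2.35 and 2.48 with no centring, one spread for all arrays or quantile normalization. Over the same 9 settings Ms4a1 lay between -0.47 and -0.24, Cd79a between -0.45 and -0.16, Cd22 between -0.42 and -0.23, Blnk between -0.36 and -0.12 and Xbp1 between -0.20 and -0.10. Cd79b, between -0.10 and 0.04, was positive without mouse 1, and Cd37, between -0.04 and 0.05, took both signs. Called probes numbered 2832, with 2588 to 3431 over the 7 settings that keep all mice, and 1325 to 3036 when each mouse was left out. Called genes over all lists but that of the response genes, each gene counted once, numbered 50 of 156, beside 25.4% of all genes. They numbered 46 to 59 with all mice kept and 23 to 61 when each mouse was left out. Without mouse 2, 4 or 6 the counts were 1376, 1325 and 1708 probes, and 25, 23 and 29 genes of the lists. No paired analysis was possible because each array holds 1 mouse against the same pool. Without intensities, signal over background cannot be given.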
